A study of Homo sapiens with 8 samples.

Results

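The genes described here are the protein-coding splicing regulators of 3 kinds: the SR proteins with the SRRM proteins, the hnRNP proteins, and the tissue-restricted regulators of the PTBP, RBFOX, NOVA, ELAVL, CELF and MBNL families, together with the arginine methyltransferase PRMT5. They were chosen by symbol alone (SRSF and TRA2A or TRA2B, SRRM1 to SRRM4, every HNRNP symbol, PTBP1 to PTBP3, RBFOX1 to RBFOX3, NOVA1 and NOVA2, ELAVL1 to ELAVL4, CELF1 to CELF6, MBNL1 to MBNL3, and PRMT5). This gave 67 genes out of the 60668 in the count files, of which 19934 are annotated as protein-coding, and 59 of the 67 were expressed highly enough to be tested among 15222 tested genes. Another 123 genes with such symbols were left out because they are annotated as pseudogenes. The symbols themselves were picked with earlier results of these data known.

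Splicing removes introns from pre-mRNA, and the exons that are kept depend on RNA-binding proteins that sit on the pre-mRNA beside the spliceosome. SR proteins carry an arginine- and serine-rich tail and mostly favour the inclusion of exons they bind, whereas many hnRNP proteins favour skipping, and the balance of both differs between tissues. The PTBP, NOVA, RBFOX, ELAVL and CELF proteins are best known for the exon choices that change while neurons form, and PRMT5 adds symmetric methyl groups to arginines of the Sm proteins at the core of the spliceosome. In lymphoma and other tumour cells, the transcription factor MYC has been linked to the level of PRMT5, SRSF1, PTBP1, HNRNPA1 and HNRNPA2B1.

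D283 Med, a long-established cell line from a MYC-driven medulloblastoma, had been transduced with a lentivirus that carries a doxycycline (DOX)-inducible, FLAG-tagged OMOMYC transgene and selected with hygromycin. OMOMYC is a mutated piece of MYC that acts as its dominant-negative form. PolyA+ RNA of these D283-OMO cells was sequenced from 4 untreated replicates (OMO) and 4 replicates after 72 h of DOX (OMO+DOX), described by the study as biological replicates. Both groups carry the transgene, and cells without it that received DOX were not analysed here, so the effect of DOX itself and of OMOMYC cannot be told apart in these libraries.

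Totals were 46592947 to 54020506 counts in untreated libraries and 38390696 to 49249167 in DOX-treated libraries. Untreated replicate 3 stood apart: it correlated with the rest of its group at a mean of 0.9936, where the other 3 had means of 0.9962 to 0.9969, and it held the lowest or highest untreated value for 51 of the 59 tested members. The study describes D283 Med cells as lying between group 3 and another medulloblastoma subgroup. All 6 markers of group 3 medulloblastoma were expressed in both groups. They summed to 3173 to 3259 CPM (counts per 1000000 counts of a library, with TMM scaling) in untreated and 1757 to 1899 CPM in DOX-treated libraries. Of these 6, OTX2, NEUROD1, NPR3, IMPG2 and GABRA5 all fell over 2-fold and MYC rose; without MYC the 5 summed to 2125 to 2356 CPM and 700.4 to 719.8 CPM. Neuron markers summed to 579 to 597 CPM and 974 to 1015 CPM; of 10, 5 rose, 3 fell and STMN2 and GAP43 were below 1 CPM throughout. Of the glia markers, GFAP, AQP4, OLIG1 and MBP were below 1 CPM in every library and OLIG2 fell by 0.72 on the log2 scale. Markers of leukocytes, endothelium and fibroblasts summed to 26.3 to 27.1 CPM and 24.8 to 28.6 CPM, and 7 of 10 were below 1 CPM. Most of that sum was COL1A1, with means of 22.1 and 23.4 CPM. LYZ rose from a mean of 0.154 to 2.15 CPM and VWF fell from 3.26 to 1.24 CPM. In bulk RNA, fewer cells of a type and less RNA per cell cannot be told apart, and the part of these marker shifts in the results below was not tested. Of the MYC readouts named by the study, CAD (pyrimidine synthesis) fell by 0.48 and NCL (nucleolin) fell by 0.44 on the log2 scale. The RNA of MYC itself rose by 0.26, a value that may hold reads of the transgene, which carries MYC sequence. For MYC protein, which these libraries do not measure, the study reported a strong fall with DOX in a single immunoblot experiment.

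Of the 59 tested members, 36 were lower and 12 were higher with DOX at an adjusted p below 0.05 (edgeR, quasi-likelihood test, Benjamini-Hochberg adjustment across all tested genes), and 11 did not pass. Members were therefore lower in 61.0% and higher in 20.3% of cases, against 38.1% lower and 38.5% higher over all 15222 tested genes. The median log2 fold change (log2FC, DOX-treated over untreated) of the members was −0.27, against 0.01 for all genes. Without untreated replicate 3 the counts were 37 lower and 13 higher. Changes over 2-fold were fewer: 8 members (13.6%) fell that far, against 9.81% of all tested genes, and 3 members (5.08%) rose that far, against 11.0%. The thresholds in the methods of the study, an adjusted p below 0.001 and an absolute log2FC above 2, were met by 1 member, ELAVL3. They were met by 7.12% of all tested genes. The results section of the study names a looser adjusted p with the same log2FC. The values of untreated and DOX-treated libraries did not overlap for 46 members (78.0%), against 71.7% of all tested genes.

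**Figure D1:**
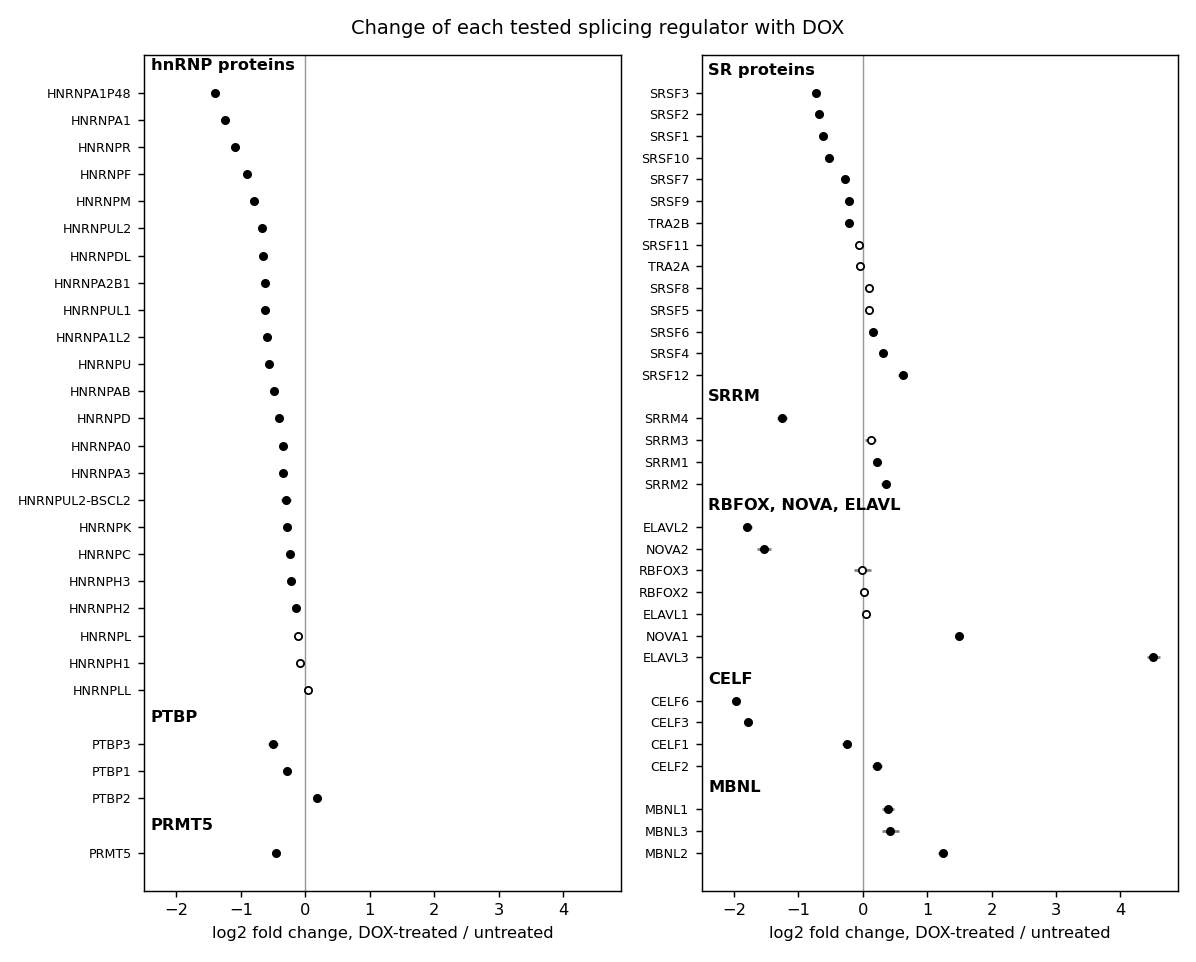
The log2 fold change of each of the 59 tested members with DOX (x axis, log2 scale; bars are standard errors, often smaller than the point), by family, with filled points at an adjusted p below 0.05. The hnRNP proteins lie between −1.40 and 0.04 with no filled point above 0 (scaling by totals alone puts HNRNPLL there), while the widest changes in both directions are among the ELAVL, NOVA and CELF genes.

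Scaling moves this balance. When libraries were scaled by their total alone, the median log2FC of all genes rose from 0.01 to 0.14, and members then counted 32 lower and 17 higher, with a median of −0.15. Such a change of scaling moves the log2FC of every gene by nearly the same amount. It could therefore hardly change the gap between the member median and that of all genes.

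Among the larger families, the hnRNP proteins moved in one direction. Of 23 tested hnRNP genes, 20 fell, none rose and 3 did not pass, with a median log2FC of −0.49. Not all of the 20 are independent: HNRNPA1P48, HNRNPA1L2 and the read-through gene HNRNPUL2-BSCL2 share reads with other genes. With scaling by totals alone, HNRNPLL passed as higher (0.17) and the median was −0.37. The 14 SR proteins were mixed, with 7 lower, 3 higher and 4 not past the test, and a median of −0.13. With scaling by totals alone their median was −0.01, and SRSF9 and TRA2B no longer passed. Among the SRRM genes 2 rose and 1 fell, among the PTBP genes 1 rose and 2 fell, and all 3 MBNL genes rose (median 0.43). The 7 tested RBFOX, NOVA and ELAVL genes split evenly into 2 higher and 2 lower with 3 not past the test, and 3 of the 4 tested CELF genes fell.

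**Figure D2:**
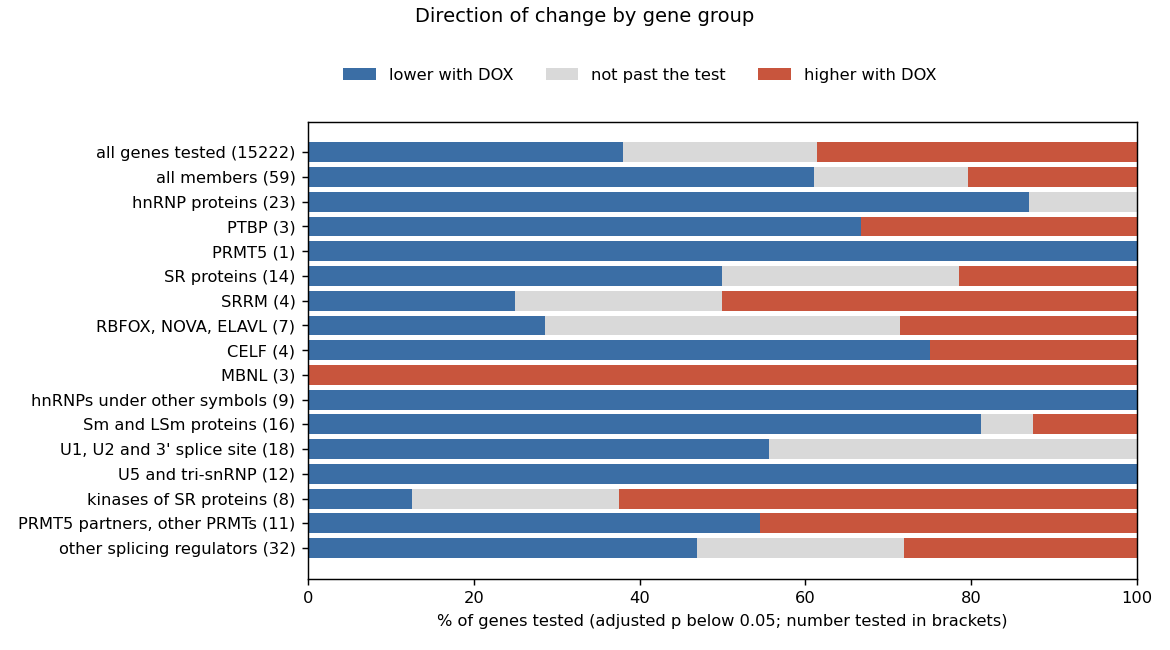
Percentage of the tested genes of each family or list that were lower, not past the test or higher with DOX (adjusted p below 0.05, edgeR), with the number tested in brackets and all 15222 tested genes on top. No higher gene is in the bars of hnRNP proteins, PRMT5, hnRNPs under other symbols, U1, U2 and 3′ splice site factors, or U5 and tri-snRNP proteins. The bar of MBNL holds no lower one.

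HNRNPA1 (ENSG00000135486.17, chr12:54280193-54287088, plus strand, GRCh38) codes for an abundant hnRNP that represses the use of splice sites, and it had the highest level per length of all members. It stood at 4690, 5084, 5285 and 4850 CPM in untreated replicates 1 to 4 and at 2095, 2062, 2147 and 2096 CPM in DOX-treated replicates 1 to 4. The lowest untreated library was thus more than 2-fold above the highest DOX-treated one. Its log2FC was −1.24 ± 0.05 (SE, 4 against 4 libraries; adjusted p = 3.89e-10, edgeR). Per kilobase of merged exons, HNRNPA1 made up 37.5% of the summed hnRNP level in untreated and 25.8% in DOX-treated cells. RSEM divides reads that match several genes, and HNRNPA1 has many processed copies: 74 annotated HNRNPA1 pseudogenes, 46 of them with counts, held 53.5 to 56.1 CPM in untreated and 23.3 to 25.2 CPM in DOX-treated libraries, or 1.06% to 1.18% of the HNRNPA1 level. The counts of HNRNPA1 were not whole numbers in any of the 8 libraries.

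HNRNPA1P48 (chr16:51553436-51647132) and HNRNPA1L2, annotated as protein-coding in GENCODE, are near copies of HNRNPA1, so their counts are uncertain. HNRNPA1P48 read 27.6, 29.9, 31.4 and 27.9 CPM in untreated and 11.0, 10.4, 10.8 and 12.1 CPM in DOX-treated libraries, a log2FC of −1.40 ± 0.06 (adjusted p = 2.47e-09, edgeR). HNRNPA1L2 fell by 0.59 on the log2 scale, from 30.7 ± 2.11 CPM to 20.4 ± 0.0944 CPM (SD, n = 4).

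HNRNPR (ENSG00000125944.20, chr1:23303771-23344336, minus strand) codes for an hnRNP known for its place in the transport and processing of mRNA in motor neurons. Its level was 413, 423, 410 and 415 CPM in untreated and 192, 196, 199 and 195 CPM in DOX-treated libraries. Replicates of each group lay close together and far from the other group, and the log2FC was −1.09 ± 0.04 (adjusted p = 2.83e-10, edgeR). Among the genes with an HNRNP symbol, it was the only one over 2-fold lower that is not a relative of HNRNPA1. Its counts were whole in all but 1 library. When libraries were scaled by their total alone, its log2FC was −0.96, which is under 2-fold.

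A further 8 hnRNP genes had a log2FC between −1 and −0.5. HNRNPF, which binds runs of G near splice sites, fell by 0.90 ± 0.04, from 382 ± 4.54 CPM to 205 ± 4.23 CPM. HNRNPM, a regulator of exon choice in the change between epithelial and mesenchymal states, fell by 0.79 ± 0.05, from 422 ± 22.8 CPM to 244 ± 9.76 CPM. The chromatin-linked HNRNPU and its relatives HNRNPUL1 and HNRNPUL2 fell by 0.57, 0.62 and 0.68 on the log2 scale, and HNRNPDL fell by 0.66. The reads of HNRNPUL2 are shared with the read-through gene HNRNPUL2-BSCL2, which overlaps it over 2391 exonic bases on the same strand and fell by 0.30.

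HNRNPA2B1 (chr7:26173057-26201529), a close relative of HNRNPA1 that also sorts microRNAs and mRNAs, read 1002, 1013, 1027 and 997 CPM in untreated and 663, 643, 673 and 632 CPM in DOX-treated libraries. The groups were well apart, and its log2FC was −0.63 ± 0.04 (adjusted p = 4.01e-08, edgeR). HNRNPA1 therefore fell further than HNRNPA2B1: their ratio per kilobase was 8.52 to 9.37 in untreated and 5.75 to 6.03 in DOX-treated libraries.

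Smaller falls, between 0.14 and 0.49 on the log2 scale, were seen for HNRNPAB, HNRNPD, HNRNPA0, HNRNPA3, HNRNPUL2-BSCL2, HNRNPK, HNRNPC, HNRNPH3 and HNRNPH2. HNRNPC, which coats nascent transcripts and keeps cryptic exons out, went from 1041 ± 41.2 CPM to 879 ± 3.55 CPM. Of the genes with an HNRNP symbol, only HNRNPH2 lost its fall when libraries were scaled by their total alone (log2FC −0.01). HNRNPH1, at 784 ± 12.3 and 735 ± 27.5 CPM, and HNRNPLL, at 45.1 ± 0.909 and 46.4 ± 1.73 CPM, did not pass the test. HNRNPL did not pass either (log2FC −0.11, adjusted p = 0.0834, edgeR), although its untreated values (248 to 279 CPM) lay above all DOX-treated ones (225 to 246 CPM). The highest of its untreated values came from replicate 3, and no other member missed the test with groups that did not overlap. HNRNPCL1, HNRNPCL2, HNRNPCL3 and HNRNPCL4 had at most 3 counts in every library.

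In sum over the family, hnRNP transcripts took 15380 to 16112 CPM of the untreated and 9888 to 10038 CPM of the DOX-treated libraries. SR proteins together went from 3545 to 3583 CPM to 2853 to 2982 CPM, so neither sum overlapped between the groups. A few genes weigh heavily in both sums. HNRNPA1 alone went from a mean of 4977 CPM to 2100 CPM. Among the SR proteins, SRSF1 went from 625 to 406 CPM, SRSF2 from 436 to 272 CPM and SRSF3 from 444 to 268 CPM, while 3 SR genes rose. The order by level per kilobase was led by HNRNPA1, HNRNPK, HNRNPA3, HNRNPC and HNRNPDL in both groups. Merged exons hold every annotated exon, so this order and the ratios per kilobase depend on that length. HNRNPU, at 1424 CPM in untreated libraries, has 22512 bases of merged exons and stood at 63.3 CPM per kb. HNRNPA1 was at 977 CPM per kb and HNRNPK at 166 CPM per kb in untreated cells, and at 412 and 137 CPM per kb after DOX. HNRNPR fell from 47.9 to 22.6 CPM per kb and HNRNPM from 75.3 to 43.5 CPM per kb, whereas HNRNPH1 was at 82.7 and 77.5 CPM per kb. Across the 59 members, Spearman's rho between the untreated level per kilobase and the log2FC was −0.42, across the 23 hnRNP genes −0.15 and across all tested genes −0.34; the log2FC shares the untreated libraries with the level, so these values are a description only.

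**Figure D3:**
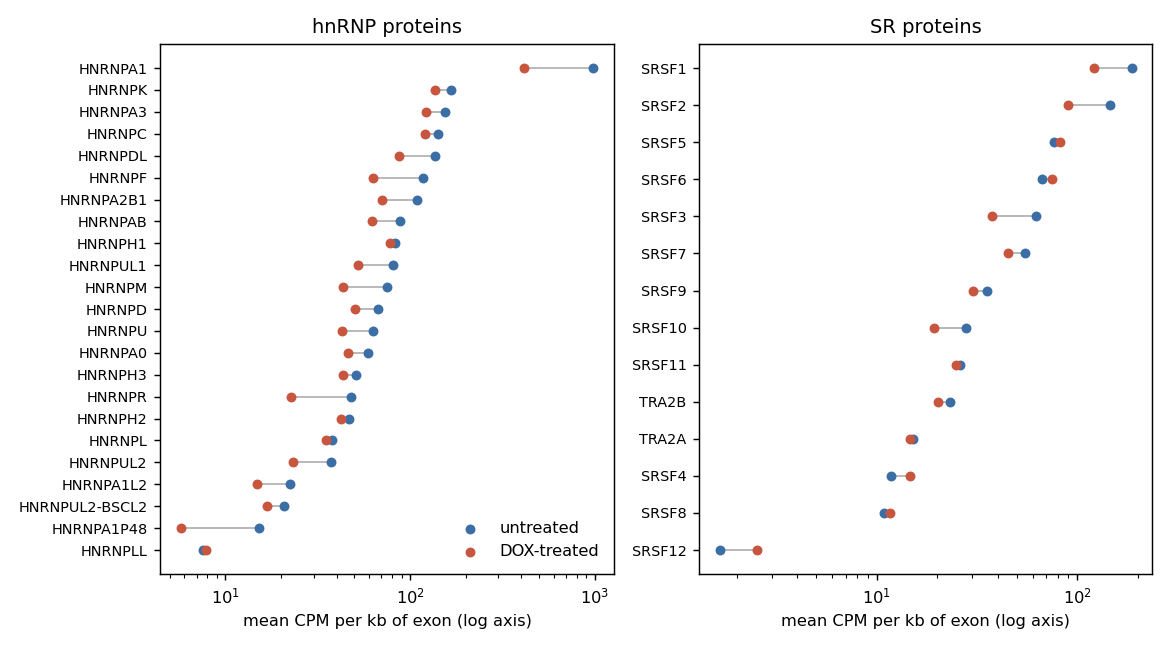
Mean level of each tested hnRNP and SR protein gene in untreated and DOX-treated libraries, in CPM per kilobase of merged exons (x axis, log scale), joined by a line and ordered by the untreated level. HNRNPA1 lies far right of all others in both groups (977 and 412 CPM per kb), and SRSF1 and SRSF2 lead the SR proteins.

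MYC and its partner MAX bind the E-box, whose canonical form is CACGTG. This sequence reads the same on both strands and was the only motif looked for. RefSeq promoter windows (GRCh38.p14, 250 bases before to 50 after each annotated start, 300 in all) were found for 59 of the 67 members, and none for RBFOX2, ELAVL3, TRA2A, SRSF2, HNRNPA1, HNRNPCL3, HNRNPA1P48 and ELAVL1. The E-box occurred in 12 of the 124 member windows (9.68%), against 7.26% of all 35116 windows and 8.40% of the 21020 windows of protein-coding genes. Of the hnRNP windows, 8 of 35 (22.9%) held it, from 7 of 24 genes. Counted by gene, it was found in 1642 of 14895 protein-coding genes with a window. Among RBFOX, NOVA and ELAVL genes it was in 3 of 34 windows, from 3 of 6 genes (RBFOX1, RBFOX3 and ELAVL4). In the MBNL family 1 of 9 windows held it (MBNL1). No window of the SR, SRRM, PTBP or CELF genes or of PRMT5 did, and none of the 17 windows of the 8 members over 2-fold that had one. A match here is only a match of letters, with no binding data behind it, and the matched hnRNPs run from HNRNPM, with a fall of 0.79, to HNRNPH2, with a fall of 0.14.

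The hnRNP stretches around the E-box are shown because 8 of the 12 member windows with it belong to that family. Those of other families are not printed. Capitals mark CACGTG, and each stretch is written 5′ to 3′ along the gene's own strand. It ends no later than the last base before the RefSeq start of its window. GENCODE can place the start of a gene further upstream, so several stretches lie inside the GENCODE span of their gene. They lie at chr19:8444906-8444965 (HNRNPM, plus strand), chr4:82430349-82430408 and chr4:82430557-82430616 (both HNRNPDL, minus strand), chr4:82373992-82374045 (HNRNPD, minus strand), chr2:177212696-177212755 (HNRNPA3, plus strand), chr10:68331616-68331675 (HNRNPH3, plus strand) and chrX:101408153-101408221 (HNRNPH2, plus strand).
HNRNPM: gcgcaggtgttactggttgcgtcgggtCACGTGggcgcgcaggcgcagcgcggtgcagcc
HNRNPDL, first window: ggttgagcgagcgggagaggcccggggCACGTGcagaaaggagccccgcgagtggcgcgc
HNRNPDL, second window: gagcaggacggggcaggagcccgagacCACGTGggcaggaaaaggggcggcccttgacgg
HNRNPD: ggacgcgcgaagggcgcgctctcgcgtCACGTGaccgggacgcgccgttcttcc
HNRNPA3: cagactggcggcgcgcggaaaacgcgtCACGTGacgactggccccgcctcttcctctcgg
HNRNPH3: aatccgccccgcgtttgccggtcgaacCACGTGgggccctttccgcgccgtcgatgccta
HNRNPH2: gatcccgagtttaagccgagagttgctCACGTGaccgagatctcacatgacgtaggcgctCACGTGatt

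HNRNPH2 holds 2 E-boxes, centred 39 and 6 bases before the start, while in HNRNPM the centre lies 39 bases, in HNRNPH3 47 bases, in HNRNPD 24 bases and in HNRNPA3 68 bases before it. The E-box of HNRNPUL1 lies past the start and is not printed. HNRNPR, with a larger fall than any of these, has no CACGTG in its window. The part of that window before the RefSeq start (chr1:23344285-23344534, minus strand, 68.0% G or C) is shown for contrast. It is all in lower case because nothing matched, and it reaches into the GENCODE span of the gene.
HNRNPR: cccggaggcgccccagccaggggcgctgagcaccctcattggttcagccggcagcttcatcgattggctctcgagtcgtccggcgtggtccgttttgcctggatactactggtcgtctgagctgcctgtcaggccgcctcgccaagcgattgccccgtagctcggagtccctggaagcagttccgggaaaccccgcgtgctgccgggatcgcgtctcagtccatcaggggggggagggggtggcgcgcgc

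Of the SR proteins, the founding member SRSF1 (ENSG00000136450.13, chr17:58003360-58007346, minus strand), which acts as an oncogene when overproduced, read 639, 629, 605 and 628 CPM in untreated and 410, 426, 399 and 387 CPM in DOX-treated libraries. All untreated values lay well above the DOX-treated ones, and the log2FC was −0.62 ± 0.04 (adjusted p = 1.12e-07, edgeR). Its exons overlap those of AC015813.2 over 1890 bases on the same strand, and its counts were not whole in all libraries.

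SRSF3 and SRSF2 fell by 0.73 ± 0.05 and 0.68 ± 0.04 on the log2 scale, the largest falls among the SR proteins. SRSF3, the smallest family member and a link between splicing and export, went from 444 ± 21.4 CPM to 268 ± 8.10 CPM. SRSF2, whose hotspot mutations occur in blood cancers, went from 436 ± 11.0 CPM to 272 ± 9.53 CPM. SRSF10, which represses splicing once dephosphorylated, fell by 0.52 ± 0.06, where untreated replicate 3 (253 CPM) lay below the other untreated libraries (292 to 297 CPM) but above all DOX-treated ones (184 to 216 CPM).

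SRSF7 (−0.27), SRSF9 (−0.22) and TRA2B (−0.21) fell less on the log2 scale. Under scaling by library totals alone, SRSF9 stood at −0.10 and TRA2B at −0.08. Rises were seen for SRSF12, a rarely studied SR protein, from 7.50 ± 0.465 CPM to 11.6 ± 0.604 CPM (log2FC 0.62 ± 0.07), for SRSF4 (0.31) and for SRSF6 (0.16). SRSF5, SRSF8, SRSF11 and TRA2A had log2FC between −0.06 and 0.10 and did not pass. Under scaling by totals alone SRSF5 and SRSF8 passed as higher, both at a log2FC of 0.22.

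SRRM2 and SRRM1, large proteins of the spliceosome and of nuclear speckles, rose by 0.36 ± 0.07 and 0.22 ± 0.04 on the log2 scale. SRRM2 was the most expressed of these genes, at 1174, 1136, 982 and 1170 CPM in untreated and 1570, 1372, 1422 and 1362 CPM in DOX-treated libraries. Groups did not overlap, and untreated replicate 3 was the lowest of all. SRRM4 (ENSG00000139767.10, chr12:118981495-119163051, plus strand), which turns on the inclusion of neuronal microexons, moved in the opposite direction: 68.4, 68.2, 56.6 and 68.1 CPM in untreated and 29.9, 27.5, 24.6 and 27.6 CPM in DOX-treated libraries. Its log2FC was −1.25 ± 0.08 (adjusted p = 2.83e-08, edgeR). Its relative SRRM3 was low in both groups, at 5.35 ± 0.283 and 5.81 ± 0.497 CPM, and did not pass the test.

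PTBP1 (ENSG00000011304.20, chr19:797075-812327, plus strand) represses neuronal exons outside neurons, including one in PTBP2 whose loss keeps PTBP2 low. PTBP1 read 325, 319, 339 and 334 CPM in untreated and 275, 253, 274 and 277 CPM in DOX-treated libraries. The groups did not overlap, and the log2FC was −0.29 ± 0.05 (adjusted p = 0.000117, edgeR), or −0.16 when scaled by library totals alone.

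PTBP2, the form of neural progenitors and young neurons, read 35.9, 37.5, 33.0 and 35.5 CPM in untreated and 42.1, 41.4, 40.0 and 37.5 CPM in DOX-treated libraries. It rose by 0.18 ± 0.05 on the log2 scale (adjusted p = 0.00934, edgeR), with DOX-treated replicate 4 meeting the highest untreated value. PTBP3, known from blood cells, read 148, 149, 120 and 154 CPM in untreated and 102, 109, 98.4 and 95.6 CPM in DOX-treated libraries. It fell by 0.50 ± 0.08 on the log2 scale (adjusted p = 8.55e-05, edgeR), with untreated replicate 3 the nearest to the DOX-treated libraries.

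Per kilobase, PTBP1 exceeded PTBP2 by 16.0 to 19.3 times in untreated and by 11.5 to 13.9 times in DOX-treated libraries. PTBP1 thus kept the higher level per length in every library.

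ELAVL3 (HuC; ENSG00000196361.10, chr19:11451326-11481046, minus strand), a neuronal RNA-binding protein that stabilises mRNAs and takes part in splicing, showed the widest change of all members. It read 0.877, 0.793, 0.915 and 1.19 CPM in untreated and 20.8, 22.0, 20.7 and 22.3 CPM in DOX-treated libraries. Untreated libraries rested on 41 to 53 counts each and DOX-treated ones on 881 to 1059, and the log2FC was 4.51 ± 0.10 (adjusted p = 4.95e-12, edgeR), a rise of 22.8-fold.

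ELAVL2 (HuB; ENSG00000107105.15, chr9:23690104-23826337, minus strand), its neuronal relative, changed the other way. It read 238, 234, 192 and 227 CPM in untreated and 64.4, 70.0, 64.0 and 60.1 CPM in DOX-treated libraries, a log2FC of −1.79 ± 0.07 (adjusted p = 1e-09, edgeR). ELAVL2 still exceeded ELAVL3 per kilobase after DOX, 2.50 to 2.96 times against 177 to 273 times before. The ubiquitous ELAVL1 (HuR) was at 113 ± 3.63 and 117 ± 4.49 CPM and did not pass the test, while ELAVL4 had 0 counts in every library.

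NOVA1 and NOVA2, the neuronal splicing factors that bind YCAY repeats, also moved in opposite directions. NOVA1 (ENSG00000139910.20, chr14:26443093-26597754, minus strand) read 10.3, 10.5, 10.1 and 10.6 CPM in untreated and 30.6, 28.6, 29.2 and 29.3 CPM in DOX-treated libraries, a log2FC of 1.50 ± 0.05 (adjusted p = 9.65e-11, edgeR). NOVA2 (ENSG00000104967.7, chr19:45933734-45973546, minus strand) read 9.43, 7.68, 6.85 and 7.55 CPM in untreated and 2.64, 2.77, 2.72 and 2.77 CPM in DOX-treated libraries, a log2FC of −1.53 ± 0.11 (adjusted p = 9e-08, edgeR).

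Both NOVA genes were near the same level per kilobase before DOX, with a ratio of NOVA1 to NOVA2 of 0.945 to 1.28, and the ratio was 8.94 to 10.0 after it. RBFOX2, which binds GCAUG beside regulated exons, was at 320 ± 29.2 and 324 ± 10.8 CPM, and RBFOX3 (NeuN), a marker of mature neurons, was at 1.12 ± 0.0569 and 1.10 ± 0.146 CPM. Neither passed the test, and RBFOX1 stayed under 0.1 CPM.

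**Figure D4:**
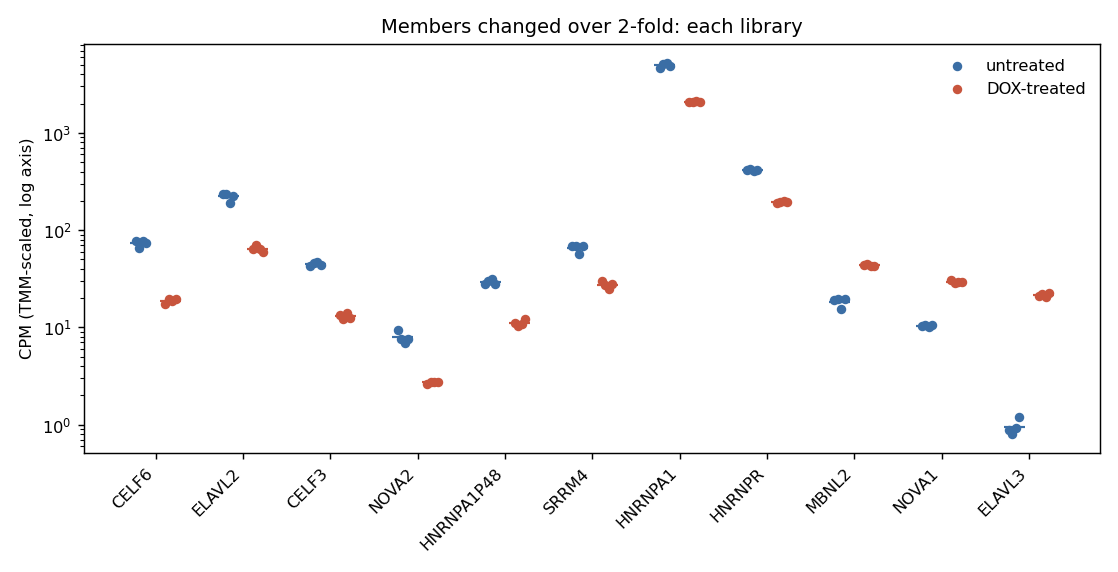
Level of the 11 members that changed over 2-fold in each of the 8 libraries (y axis, TMM-scaled CPM, log scale); each point is a library and the short line is the mean of its group. The groups do not overlap for any of the 11, and ELAVL3 runs from about 1 to above 20 CPM.

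**Figure D5:**
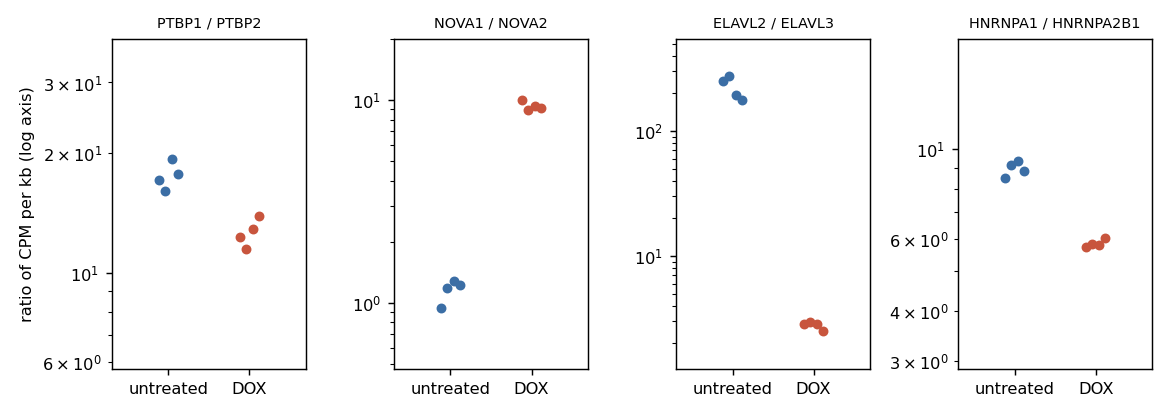
Ratio of the level per kilobase of 4 pairs of related genes in each library (y axes, log scale, each with its own range). No ratio overlaps between untreated and DOX-treated libraries; NOVA1 over NOVA2 goes from about 1 to about 9 and ELAVL2 over ELAVL3 from between 177 and 273 to below 3.

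CELF proteins bind UG-rich RNA and oppose MBNL proteins on many exons during development. CELF3 (ENSG00000159409.15, chr1:151702404-151716814, minus strand), a brain-restricted member, read 42.9, 45.8, 47.1 and 43.7 CPM in untreated and 13.5, 12.3, 14.1 and 12.5 CPM in DOX-treated libraries. Its log2FC was −1.78 ± 0.06 (adjusted p = 1.26e-10, edgeR), and its counts were whole in all 8 libraries. CELF6 (ENSG00000140488.16, chr15:72284727-72320129, minus strand) read 78.0, 66.2, 76.8 and 74.2 CPM in untreated and 17.5, 19.4, 18.5 and 19.8 CPM in DOX-treated libraries, a log2FC of −1.97 ± 0.06 (adjusted p = 1.33e-10, edgeR).

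CELF6 shares 3345 of its 3588 exonic bases with AC009690.1 and AC009690.3 on the same strand, so that its level depends on how RSEM divided those reads. CELF1, the widely expressed member, went from 224 ± 23.6 CPM to 188 ± 5.22 CPM (log2FC −0.25 ± 0.07) with groups that overlapped through untreated replicate 3, and it no longer passed when scaled by library totals alone (−0.12). CELF2 rose by 0.22 ± 0.08 on the log2 scale (adjusted p = 0.0301, edgeR), also with overlapping groups. The log2FC of CELF2 was 0.13 without untreated replicate 3, and its call was lost without untreated replicate 2 or without DOX-treated replicate 1, 2 or 3 (0.20 to 0.22). CELF4 and CELF5 were too low to test, with at most 25 and 50 counts in a library.

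MBNL proteins, the muscleblind factors that promote adult splice forms, rose as a family. MBNL2 (ENSG00000139793.18, chr13:97221434-97394120, plus strand), the form most prominent in brain, read 19.2, 19.4, 15.3 and 19.5 CPM in untreated and 44.3, 44.9, 42.4 and 42.5 CPM in DOX-treated libraries. Every DOX-treated library was more than 2-fold above every untreated one, and the log2FC was 1.24 ± 0.07 (adjusted p = 2.12e-08, edgeR). MBNL1 went from 88.0 ± 11.9 CPM to 116 ± 6.96 CPM (log2FC 0.39 ± 0.09) and MBNL3 from 10.3 ± 2.20 CPM to 13.9 ± 0.688 CPM (0.43 ± 0.13). Untreated replicate 3 was the lowest library for all 3 genes, and without it the log2FC of MBNL1 was 0.30 and that of MBNL3 0.29, both still past the test.

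PRMT5 (ENSG00000100462.16, chr14:22920511-22929585, minus strand) read 170, 179, 188 and 175 CPM in untreated and 128, 126, 136 and 132 CPM in DOX-treated libraries. Its groups were apart, and the log2FC was −0.45 ± 0.05 (adjusted p = 3.67e-06, edgeR). PRMT5-AS1 overlaps its exons over 938 bases on the other strand, and whether the counting used strand is not given in the sources used here. Of 11 tested PRMT5 partners and other arginine methyltransferases, 6 fell and 5 rose (3 without DOX-treated replicate 3). The shares over all tested genes were 38.1% lower and 38.5% higher. CLNS1A (pICln), which brings Sm proteins to PRMT5, fell by 0.90 ± 0.05, the largest fall of that list, while WDR77, the obligate partner of PRMT5, rose by 0.12, PRMT1 fell by 0.67 and PRMT6 had the largest rise (0.57).

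The substrates and surroundings of these regulators were described with lists chosen by function, with earlier results of these data known. For each list below, the shares to compare with are those of all tested genes, 38.1% lower and 38.5% higher. Of 16 Sm and LSm proteins, 13 fell and 2 rose (1 with most single libraries left out), with a median log2FC of −0.53; SNRPB fell by 0.84 and LSM8, a protein of the U6 ring, rose by 0.41. All 12 U5 and tri-snRNP proteins fell (median −0.51), PRPF6 the most at 0.88. Of 18 U1 and U2 snRNP proteins and 3′ splice site factors, 10 fell and none rose (median −0.23), with SF3A2 falling by 1.07. In that list 1 gene rose without untreated replicate 3, and 2 rose with scaling by totals alone.

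All 9 hnRNP proteins that carry other symbols fell (median −0.40). RBMX, also known as hnRNP G, fell by 1.44 ± 0.04, from 1043 ± 13.4 CPM to 386 ± 14.1 CPM, which is further than HNRNPA1. The kinases that phosphorylate SR proteins went the other way more often: of 8 tested, 5 rose, 1 fell and 2 did not pass, with a median of 0.21. CLK1 rose by 0.53 ± 0.05 and SRPK1 fell by 0.16 ± 0.05, and the count of falling kinases was 2 without untreated replicate 3 and 0 with scaling by totals alone.

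Other splicing regulators were mixed, with 15 of 32 lower, 9 higher and a median log2FC of −0.09. Among all tested genes 38.1% were lower and 38.5% higher, with a median of 0.01. KHDRBS2 (SLM1), a neuronal relative of SAM68, had the largest rise of that list, reading 1.67, 1.28, 1.44 and 1.75 CPM in untreated and 85.4, 83.6, 85.6 and 80.2 CPM in DOX-treated libraries (log2FC 5.77 ± 0.08). RBM24, known from muscle splicing, rose by 1.30 ± 0.09, and PCBP3, a poly(C)-binding protein, fell by 2.13 ± 0.07, from 28.4 ± 1.40 CPM to 6.49 ± 0.477 CPM.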

How the data were processed

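The study prepared libraries with a stranded TruSeq mRNA kit, used Trim Galore for trimming, STAR for alignment to the primary assembly of GENCODE release 32 (GRCh38) and RSEM for gene quantities. The authors deposited expected counts per gene, one file per library, which are not normalized and in part not whole because RSEM divides reads that match several genes. Gene symbols, types, coordinates and merged exon lengths were taken from GENCODE release 29, in which 58561 of the 60668 gene identifiers were found.

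Expected counts were rounded, and genes over 1 CPM in at least 4 of 8 libraries were tested with edgeR 4.0.16 in R 4.3.3 (TMM, quasi-likelihood test, Benjamini-Hochberg adjustment over 15222 genes, no covariates). Standard errors are the absolute log2FC over the square root of the F statistic. CPM are TMM-scaled. TMM factors were 0.9383 to 0.9718 in untreated and 1.038 to 1.052 in DOX-treated libraries, and 3 counts equal 0.0581 to 0.0748 CPM, which covers counting error only. The edgeR fit, with and without the replicate number as a block, and DESeq2's Wald test were tested on simulated data first. The other alternatives were not. Members, families and lists were chosen with earlier results of these data known. All members are accounted for; single values are given for members over 2-fold and for PTBP1 to PTBP3, HNRNPA1, HNRNPA2B1, SRSF1 and PRMT5, and in other lists for the largest rise and fall past the test and any change over 2-fold. A glia marker and the summed level of that list, which rests on it, are not reported here. A few further members and partners were named after their values were seen. The alternatives were DESeq2's size factors or its Wald test (DESeq2 1.42.0), library totals alone, other filters on low counts, the replicate number as a block, and each library left out in turn. Figures used Python 3.11.15 with matplotlib 3.10.9.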

Additional observations from a re-analysis of the deposited data

Results flagged for a closer look

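A value was singled out where, within a group of 4 libraries, the gap between the highest or lowest library and its nearest neighbour was a larger share of the group's whole range than Dixon's critical value allows. Over 118 groups (59 members in 2 conditions), chance marks about 1 in 20 groups, or 5.9, and 12 were marked. Of these, 9 came from untreated replicate 3, the library that stood apart, and the cause was not tested.

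In untreated replicate 3, MBNL1 was at 70.3 CPM where the other untreated libraries were at 93.0 to 95.6 CPM, MBNL2 at 15.3 against 19.2 to 19.5 CPM, and SRRM4, which favours neuronal microexons, at 56.6 against 68.1 to 68.4 CPM. Also below the other untreated libraries there were SRSF10 at 253 against 292 to 297 CPM, RBFOX2 at 276 against 335 CPM in each of the others, SRRM1 at 191 against 204 to 206 CPM, and HNRNPK at 827 against 852 to 856 CPM. Above the others were SRSF9 at 150 against 125 to 127 CPM and HNRNPL at 279 against 248 to 253 CPM. Without this library, the calls of SRSF5 (log2FC 0.12) and HNRNPH1 (−0.10) were gained and no member lost its call.

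Among DOX-treated libraries, PTBP1 was at 253 CPM in replicate 2 against 274 to 277 CPM, TRA2B at 245 CPM in replicate 2 against 234 to 235 CPM, and SRSF5 at 417 CPM in replicate 1 against 446 to 450 CPM. Without DOX-treated replicate 1, SRSF5 passed the test as higher (log2FC 0.12).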

How the results depend on the processing

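Over 14 alternatives, 796 of 826 pairs of a member and an alternative kept their direction and their side of the threshold, 8 lost a call, 12 gained one and 10 changed sign, none of these past the test in either fit. With library totals alone the sign changed for SRSF11 (0.06), TRA2A (0.07), HNRNPH1 (0.03), HNRNPL (0.02) and RBFOX3 (0.11), and with no filter on low counts for RBFOX2 (−0.01). Over the fits that left out 1 library, RBFOX2 ranged from −0.05 to 0.03 and RBFOX3 from −0.09 to 0.07. Scaling by library totals alone accounted for 9 of the 20 changes of call: CELF1, SRSF9, TRA2B and HNRNPH2 lost their call and SRSF5, SRSF8, SRRM3, HNRNPLL and ELAVL1 gained one, as higher. The count of members over 2-fold lower was then 7 instead of 8, and the median log2FC of the SR proteins −0.01. Leaving out each library in turn gave 36 to 37 members lower and 11 to 13 higher, with 8 and 3 over 2-fold in each case. Members past the study's thresholds numbered 1 to 2 there, and 2 with no filter on low counts; they were 2 without untreated replicate 2 and without DOX-treated replicate 4, where CELF6, close to a log2FC of −2, joined ELAVL3. DESeq2's Wald test called 12 members higher and 37 lower.

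Whether equal replicate numbers mark paired libraries is not given in the sources, and 4 libraries per group are too few to settle it. Correlations of same-numbered deviations from the group means were −0.268 to 0.341. Their mean was 0.123, against −0.0453 for other numbers, and 1 library correlated best with its own number. With the replicate block the counts were 36 lower and 12 higher, and no member changed its call. Genes near the floor, such as RBFOX1, cannot be compared at this depth.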
